A study of Mus musculus with 11 samples.

Results

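Of 11 lymphoma arrays, 5 were bright for an H2-D1 probe set and 6 were dim for it, and these sets of arrays were compared over all other probe sets. The arrays were chosen by the deposited signal of 1 H2-D1 probe set alone, called the defining probe set here: a signal above 1000 put an array in the bright set, and every other array lay below 500. The bright set held 5 of 11 arrays, namely marginal 5, marginal 6, transitional 1, transitional 2 and transitional 5. The dim set held marginal 1, 2, 3 and 4 and transitional 3 and 4. Marginal and transitional are the labels' names for disease severity classes, and both classes lay on both sides, with 2 bright and 4 dim marginal arrays and 3 bright and 2 dim transitional arrays.

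All 11 arrays carried RNA from sporadic B cell lymphomas of E-mu-BRD2 mice on the FVB background, 1 array per tumour, with oligoclonal immunoglobulin recorded for each. The transgene expresses BRD2, a chromatin reader of the BET family, under the immunoglobulin heavy chain enhancer, which is active in lymphoid cells, mainly B cells. No array of normal B cells is used here, ages are not given in the labels, and nothing in the labels distinguishes bright from dim mice by genotype or treatment. The labels' sample numbers do not state a shared litter or batch, so p-values measure the spread between these samples, and the number of arrays limits their precision.

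H2-D1 encodes a classical class I heavy chain of the mouse major histocompatibility complex, which displays peptides from inside the cell to CD8 T cells. The complex, called H2 in the mouse, also holds the class II genes, whose products show peptides to CD4 T cells on B cells and other antigen-presenting cells, and a class III stretch of genes with unrelated functions, such as Vars. H2 genes are among the most polymorphic of the genome, inbred strains differ in their H2 haplotype, and short array probes can bind one allele and not another. Class I genes are also alike in sequence, so their probe sets may bind transcripts of more than 1 gene.

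On the probe set that defined the split, the bright arrays read 5888 on marginal 5, 3871 on marginal 6, 9722 on transitional 1, 10139 on transitional 2 and 2504 on transitional 5. The dim arrays ran from 129 on transitional 4 to 345 on transitional 3, with a median of 243. The arrays nearest the threshold were therefore transitional 3 below it at 345 and transitional 5 above it at 2504, and no array lay between them. The mean difference on the log2(signal + 16) scale, used for all differences given here, was 4.60. These values chose the arrays and are given as a description with no test.

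The other H2-D1 probe sets did not all follow the split. In the annotation, 11 probe sets carried H2-D1, 9 with H2-D1 alone and 2 shared with other genes, and all 11 were left out of the comparison. One of them read 148 to 392 on the bright arrays and 44.7 to 78.1 on the dim arrays, with no overlap and a difference of 1.73. A further pair was also higher on average in the bright set, by 2.47 and 1.49, but each overlapped, the first because marginal 6 read 53.7 and the dim marginal 4 read 63.1. The 5 remaining single-gene probe sets differed in the opposite direction, by -0.44 to -0.76, and overlapped in every case. They include the brightest, which averaged 14985 ± 5594 on the bright arrays (SD, n = 5) and 19923 ± 6024 on the dim arrays (SD, n = 6). Within an array, the defining probe set minus the brightest other H2-D1 probe set was -1.61 to -0.95 log2 units on the bright arrays and -6.66 to -6.07 on the dim arrays. The defining probe set chose the arrays, so this separation follows from the rule and is given as a description only. Bright and dim thus name the signal of 1 probe set, and not that of H2-D1 as its brightest probe sets measured it.

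**Figure D1:**
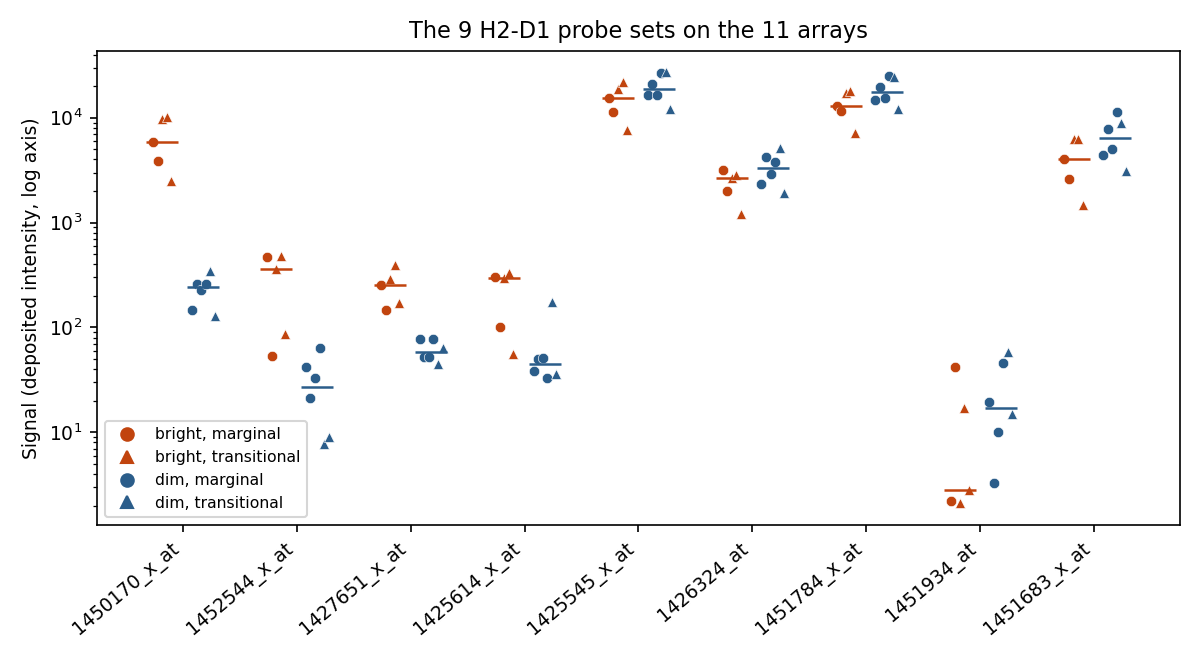
Signal (deposited intensity, log axis) of the 9 probe sets annotated to H2-D1 alone on the 5 bright and 6 dim arrays, with circles for marginal and triangles for transitional tumours and lines at each set's median. The defining probe set, leftmost, and the third from the left separate the sets, while the brightest probe sets overlap.

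Over the 22615 probe sets tested, limma called 0 higher and 0 lower in the bright set at a Benjamini-Hochberg adjusted p of 0.05 (0% of those tested), and 1153 (5.1%) had an unadjusted p under 0.05. Outside H2-Eb1 and Vars, which were named with the split and are given no p, the smallest adjusted p was 0.861, and 0 probe sets were called for an interaction of class with brightness, with 967 (4.28%) under 0.05 unadjusted. The genes named below are therefore described by their values and by whether the sets overlap, not as changes. All 5 bright arrays lay above all 6 dim arrays on 62 probe sets (0.274%) and below all of them on 40 (0.177%). Asked within each class separately, 171 probe sets (0.756%) had bright above dim in both classes and 103 (0.455%) bright below dim in both.

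The genes around H2-D1 in gene order, in the H2 region and just beyond it, held several of the probe sets that separated the arrays. Position was counted in steps of gene order among the 596 measured genes of chromosome 17, from a RefSeq gene table of GRCm38.p6. Within 50 steps of H2-D1, bright lay above dim without overlap on 6 of 149 probe sets (4.03%), against 58 of 20371 (0.285%) over all probe sets with 1 gene. Bright lay below dim on 0 of the 149. At 51 to 100 steps the count above was 0 of 153, and over the rest of the chromosome it was 2 of 643 (0.311%). The 6 probe sets belong to 5 genes, D17H6S56E-5, Vars, Msh5, Gtf2h4 and Mmut. Vars among them was named with the split, with earlier results of these data known, so the count is not free of that choice. The median difference within 50 steps was -0.03, beside 0.02 over all probe sets, so most neighbours of H2-D1 did not differ in this way.

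Vars, which encodes the cytosolic valyl-tRNA synthetase and was named with the rule that chose the arrays, read 1382, 881, 777, 1186 and 714 on the bright arrays in the order marginal 5, marginal 6, transitional 1, 2 and 5. On the dim arrays it ran from 149.7 to 414.5 with a median of 216. Every bright array lay above every dim one, by a mean difference of 2.03, with 2.38 among marginal and 1.59 among transitional tumours. The space between the lowest bright and the highest dim array, 0.76 log2 units, was the widest of the 62 probe sets.

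D17H6S56E-5 lies 1 step further from H2-D1 than Vars and has 2 probe sets. On the first the bright arrays read 1203, 2139, 1052, 1203 and 2898 in the same order, and the dim arrays 197 to 764 with a median of 386. The difference was 1.98 ± 0.38 (SE of the fit), with 2.02 among marginal and 1.94 among transitional tumours, and with an adjusted p of 0.938 in limma. Its second probe set gave 2.19 and also did not overlap. The highest array was transitional 5 on both probe sets, in contrast to Vars, where transitional 5 was the lowest of the bright arrays.

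Msh5, a MutS homologue that works in meiotic recombination, was dim on all arrays. Its first probe set read 127, 70.6, 100.7, 170 and 77.2 on the bright arrays and 7.7 to 50.4 on the dim arrays, a difference of 1.60 ± 0.36 (SE; adjusted p in limma 0.962), which was 2.22 with 1 and 0.92 with 64 added in place of 16. A second Msh5 probe set overlapped, with a difference of 0.95 ± 0.44 (SE). Sapcd1, between Vars and Msh5, read 391 to 700 on 4 bright arrays but 48.3 on transitional 5, and 18.6 to 401 on the dim arrays, so the sets overlapped and the difference of 1.83 rests on 4 of 5 arrays. Vwa7, between Vars and Sapcd1, differed by 0.07 and overlapped. Lsm2 and Clic1, on either side of the stretch from D17H6S56E-5 to Msh5, differed by 0.09 and -0.36. That stretch of 5 genes holds 4 of the 6 non-overlapping probe sets near H2-D1, among 7 probe sets in all, and was picked out after the values were seen.

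On the other side of H2-D1, the sets separated by less. Mmut, the mitochondrial methylmalonyl-CoA mutase, lies 44 steps away. Its separating probe set read 264, 293, 207, 257 and 299 on the bright arrays and 139 to 177 on the dim arrays. The difference was 0.74 ± 0.20 (SE). The other Mmut probe sets overlapped, with differences of 0.11 and -0.06. The first of these was the brightest Mmut probe set, with a mean signal of 505. Gtf2h4, a subunit of the transcription and repair factor TFIIH, lies 8 steps away. Its separating probe set read 368 to 707 against 285 to 358, a difference of 0.44 ± 0.20 (SE). The other Gtf2h4 probe sets overlapped, with differences of 0.19, 0.48 and -0.35. The adjusted p in limma was 0.962 for both separating probe sets, and both genes were named after their values were seen. Among transitional tumours the difference on the separating Gtf2h4 probe set was 0.18, beside 0.77 among marginal tumours.

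**Figure D2:**
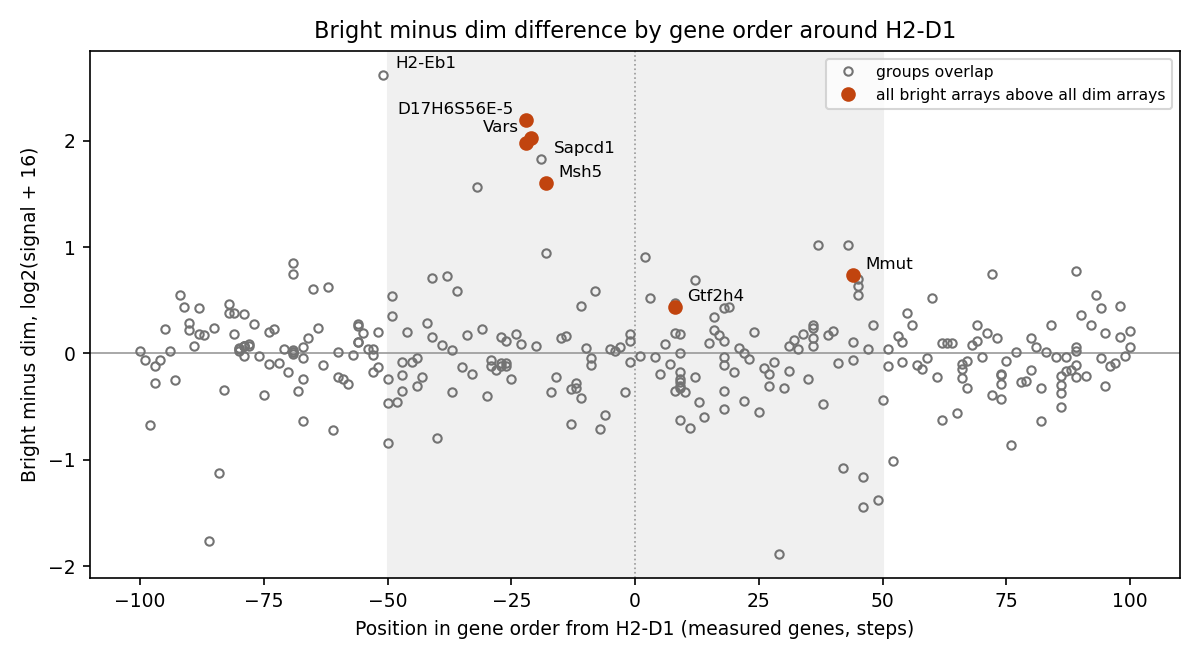
Bright minus dim difference in log2(signal + 16) for each probe set with 1 gene against its gene-order position from H2-D1, with the 50 steps on each side shaded. Filled points are the 6 probe sets on which every bright array lay above every dim one, and 4 of them lie 18 to 22 steps from H2-D1 on the side of Vars.

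H2-Eb1, the class II E beta chain and the other gene named with the rule, lies 51 steps from H2-D1, just outside that window. It read 17476, 11215, 14222, 15639 and 3647 on the bright arrays and 567.7 to 4158 on the dim arrays, with a dim median of 1934. The means were 12440 ± 5422 (SD, n = 5) and 2238 ± 1517 (SD, n = 6), a difference of 2.62, with 2.85 among marginal and 2.64 among transitional tumours. Of the 5 bright arrays, 4 exceeded every dim array, while transitional 5 lay below the dim arrays marginal 4 and transitional 3. Transitional 5 and the dim transitional 4 were also the 2 lowest of the 11 arrays for H2-Ab1, the class II A beta chain. Set against H2-Ab1 on the same array, a measure chosen after the values were seen, H2-Eb1 did not overlap: H2-Eb1 minus H2-Ab1 was -0.35 to 0.08 log2 units on the bright arrays and -3.43 to -2.68 on the dim arrays.

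**Figure D3:**
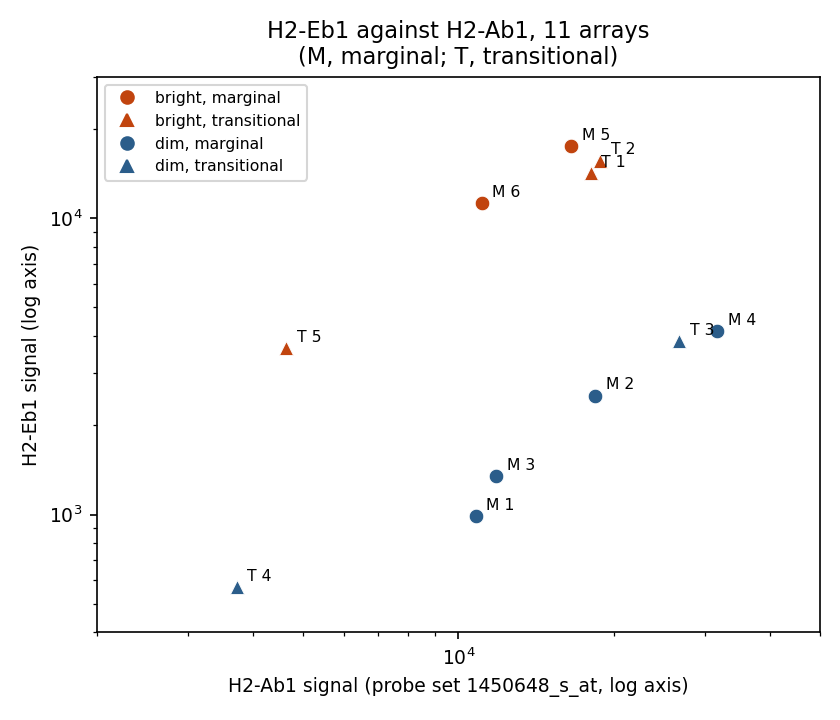
H2-Eb1 signal against H2-Ab1 signal (both log axes) on each array, labelled M for marginal and T for transitional. H2-Eb1 minus H2-Ab1 is -0.35 to 0.08 log2 units on the 5 bright and -3.43 to -2.68 on the 6 dim arrays, and T 4 and T 5 have the lowest H2-Ab1.

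The other class II genes did not share this pattern. Of 9 class II genes measured with 1 gene per probe set, 1 was higher in the bright set, H2-Eb1, and 8 were lower, 0 were called, and the median difference was -0.18. Without transitional 5 the number lower was 2, and without marginal 4 it was 3, while H2-Ea and H2-Oa were lower whichever single array was left out. H2-Ea, the E alpha chain that pairs with E beta and lacks a working gene in some H2 haplotypes, read 681 to 1121 on the bright arrays and 698 to 3292 on the dim arrays, a difference of -0.84 ± 0.34 (SE; adjusted p in limma 0.962). H2-Oa, a chain of the class II peptide editing regulator, differed by -0.72 ± 0.68 (SE), with -1.18 among marginal and 0.01 among transitional tumours. H2-DMb2 and H2-DMa, chains of the peptide editor itself, differed by -0.28 ± 0.52 and -0.24 ± 0.61 (SE).

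The other class I genes differed in both directions. Of 10 class I genes, 3 were higher and 7 lower, with a median of -0.08. H2-K1, the second classical class I gene, read 5994 to 29088 on the bright arrays and 7940 to 35362 on the dim arrays, a difference of -0.24. H2-Q5 differed by 0.90, H2-Q10 by 0.52, H2-M3, which presents formylated peptides, by -0.47 and H2-T3 by -0.44, all with overlapping sets. One probe set shared by H2-T23 and the pseudogene H2-T-ps did separate the arrays. It read 39.3 to 192 on the bright and 1.9 to 36.8 on the dim arrays, a difference of 1.97, while the second probe set for the same pair differed by -0.04 at signals of 2706 to 9990. As for H2-D1, probe sets given the same gene names thus disagreed.

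Of 46 listed genes of the class III region, 23 were higher and 23 lower in the bright set, with a median of -0.01. The probe set of Vars alone did not overlap among those taken as the brightest of each listed gene. D17H6S56E-5, which lies between Vars and Lsm2 and did not overlap, was not on this list. The first Msh5 probe set was not on it either, because the list took the second, brighter one. On the list, the largest difference after Vars and Sapcd1 was that of Cfb, complement factor B, at 1.57 ± 1.16 (SE). Those of the second Msh5 probe set and of Fkbpl, at -0.80 ± 0.36 (SE), came next. On Cfb, transitional 2 read 5997 and the other bright arrays 4.0 to 160, and without transitional 2 the difference was 0.30. Brd2, the mouse gene of the transgene's protein, also lies on chromosome 17. Its 2 probe sets differed by -0.22 ± 0.23 and 0.01 ± 0.20 (SE), so Brd2 signal did not run with the split beyond the spread of the arrays.

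Outside the H2 region, the genes with the smallest p values higher in the bright set included Syncrip, an RNA-binding protein of the heterogeneous nuclear ribonucleoprotein family. Syncrip read 830, 691, 517, 759 and 554 on the bright arrays and 232 to 411 on the dim arrays, without overlap. The difference was 1.08 ± 0.23 (SE; adjusted p in limma 0.962), larger among marginal (1.46) than transitional (0.56) tumours, with an interaction that was not called. Nme1, a nucleoside diphosphate kinase, differed by 1.93 ± 0.44 (SE), but transitional 5 at 1609 lay below the dim transitional 3 at 3113. Impact, an imprinted gene whose product restrains the GCN2 kinase, read 246 to 423 on the bright and 78.9 to 228 on the dim arrays, a difference of 1.21 ± 0.28 (SE). Mbd1, a methyl-CpG binding protein, read 25.8 to 63.7 against 1.0 to 21.6, a difference of 1.19 ± 0.27 (SE) that was 2.21 with 1 and 0.54 with 64 added in place of 16. For Nme1, Mbd1 and Impact the adjusted p in limma was 0.962.

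Impact and Mbd1 lie on chromosome 18, which held 8 of the non-overlapping probe sets higher in the bright set among 550 (1.45%), beside 58 of 20371 (0.285%) over all probe sets with 1 gene. The others were those of Hspa9 on both of its probe sets, Eif1a, Pias2, Cul2 and Rprd1a, and this grouping was noticed after the values were seen. Hspa9, the mitochondrial HSP70 chaperone, read 1243 to 2482 on the bright arrays and 833 to 1192 on the dim arrays on the first probe set, and 1881 to 3157 against 1281 to 1703 on the second. The differences were 0.84 ± 0.20 and 0.63 ± 0.18 (SE). Pias2, a SUMO ligase, read 329 to 560 against 239 to 285.

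Among the genes with the smallest p values lower in the bright set, Klra17 is a receptor of the Ly49 family, other members of which serve natural killer cells. Klra17 read 29.7, 50.1, 69.2, 105 and 45.8 on the bright arrays and 118 to 352 on the dim arrays, without overlap. The difference was -1.87 ± 0.33 (SE; adjusted p in limma 0.861), with -2.24 among marginal and -1.66 among transitional tumours. Rab31, a small GTPase of membrane traffic on chromosome 17 more than 100 steps from H2-D1, read 188 to 432 against 484 to 1037. Its difference was -1.33 ± 0.25 (SE; adjusted p in limma 0.938), and a second Rab31 probe set, at -0.69 ± 0.25 (SE), did not overlap either.

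Rasgrp4, a Ras activator of mast cells and other myeloid cells, read 4.3 to 13.6 on the bright arrays and 18.4 to 170 on the dim arrays, a difference of -1.65 ± 0.38 (SE). Ear3, of the eosinophil-associated ribonuclease family, read 51.6 to 165 on 4 bright arrays but 986 on transitional 5, and 515 to 1345 on the dim arrays, a difference of -2.54 ± 0.59 (SE). Ear genes are near-identical copies, so its signal may come from several of them. Prl, Cst9, Syt5 and Tmed11 completed the 8, at differences of -0.87 to -1.35. None of these 4 exceeded 83.6 on any array, and their differences, like that of Rasgrp4, moved over 1.5 times with the number added before the logarithm: Rasgrp4 was -2.61 with 1 and -0.85 with 64 in place of 16, and Cst9 -2.62 and -0.33. For these 6 genes the adjusted p in limma was 0.938 to 0.962.

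**Figure D4:**
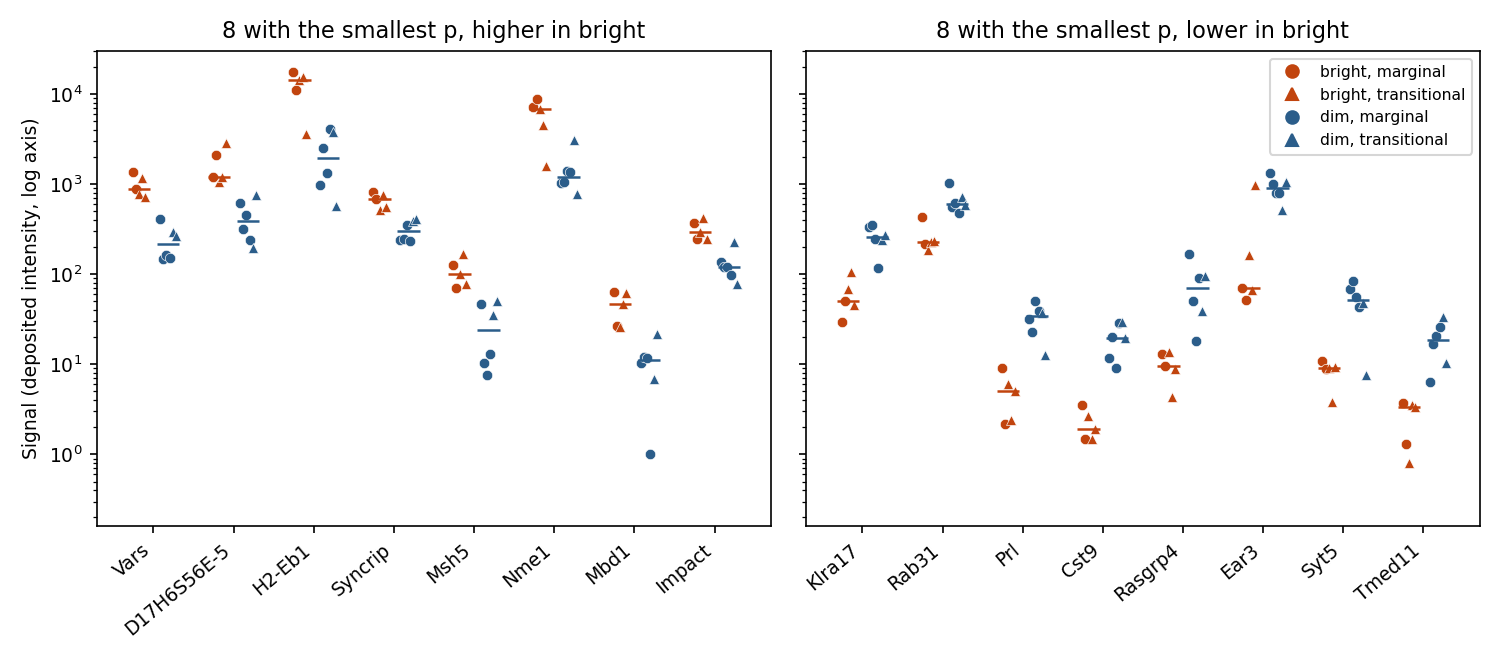
Signal (deposited intensity, log axis) on the 11 arrays of the 8 genes with the smallest p higher (left) and lower (right) in the bright set, with lines at each set's median. H2-Eb1, Nme1, Ear3 and Syt5 overlap between the sets and the other 12 do not.

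Granulocyte genes, which serve as markers of another cell type, overlapped between the sets. All 13 measured had a lower mean in the bright set, with a median difference of -2.40 beside 0.02 over all probe sets, 0 of them called and 9 with an unadjusted p under 0.05. Leaving out any 1 array, or transitional 4 and 5 together, gave 13 of 13 lower. Camp, the cathelicidin of neutrophil granules, read 794, 425, 458, 691 and 4621 on the bright arrays and 1326 to 25584 on the dim arrays, a difference of -3.19 ± 0.82 (SE; adjusted p in limma 0.962). Mmp9, the gelatinase of neutrophils, read 31.0 to 210 against 144 to 3314, a difference of -2.37 ± 0.73 (SE). The summed signal of the list ran from 9398 to 105166 on the bright and from 22752 to 249627 on the dim arrays, so the sets overlapped, and no gene of the list was at 0 on any array. In whole tissue, fewer cells of a type and less RNA per cell cannot be told apart.

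Of 13 erythroid genes, 12 had a lower mean in the bright set, with a median of -1.29 and 0 called. Without transitional 1 the median was -0.71, and Alas2 differed by -0.69. Their summed signal ran from 3516 to 111809 on the bright arrays and from 11878 to 133688 on the dim arrays, and none was at 0. Car2, carbonic anhydrase of red cells, differed by -1.32 ± 0.68 and Alas2, the first enzyme of erythroid haem synthesis, by -1.62 ± 0.93 (SE), with overlapping sets. The part of granulocyte and erythroid RNA in the other differences was not tested.

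The tumours' B cell genes did not separate the sets. Of 15 B cell genes, 3 were higher and 12 lower, with a median of -0.22 over all arrays but 0.25 among marginal and 0.09 among transitional tumours, and 0 were at 0 on any array. Transitional 4 and 5, one on each side of the split, had the lowest list scores, the mean log2 deviation of a list's genes from the 11-array mean, at -1.997 and -2.25. Cr2, the complement receptor of mature B cells, differed by -1.05 ± 0.78 (SE), with -1.80 among marginal and 0.68 among transitional tumours. Cd72, a B cell inhibitory receptor, differed by -0.68 ± 0.89 (SE). Of 14 T cell genes 3 were higher and 11 lower (median -0.22), of 10 plasma cell genes 4 and 6 (median -0.25), and of 12 natural killer cell genes 6 and 6. The classes went opposite ways on these lists: the medians among marginal and transitional tumours were -1.08 and 0.63 for T cell, -1.01 and 0.71 for plasma cell, and -0.53 and 0.64 for natural killer cell genes. The difference between the classes was not tested for lists. Klra8 and Ncr1, natural killer receptors with the smallest p of that list, differed by -0.62 ± 0.22 and -0.96 ± 0.43 (SE). Both read at most 177, and Klra8 differed by -2.01 with 1 and -0.21 with 64 added. They do not stand for the natural killer list, which split 6 and 6. Its summed signal ran from 1173 to 32792 on the bright and from 2630 to 18404 on the dim arrays.

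The other cell type lists gave medians from -0.43 for 7 megakaryocyte genes to 0.24 for 12 genes of stroma and endothelium, with -0.18 for 14 genes of macrophages and dendritic cells. Among marginal and transitional tumours, the medians were -1.27 and 0.21 for megakaryocyte genes and -0.62 and 0.70 for macrophage and dendritic genes. Transitional 2 stood apart, with list scores of 2.12 for stroma and endothelium, 1.86 for macrophage and dendritic and 1.51 for megakaryocyte genes. In that order, the other bright arrays scored -0.66 to 0.13, -1.17 to -0.065 and -1.50 to 0.13. The dim arrays scored -0.38 to 0.18, -0.26 to 0.96 and -0.83 to 0.77. Of 23 mitosis genes, 7 were higher and 16 lower, with a median of -0.21. None of these genes was called.

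**Figure D5:**
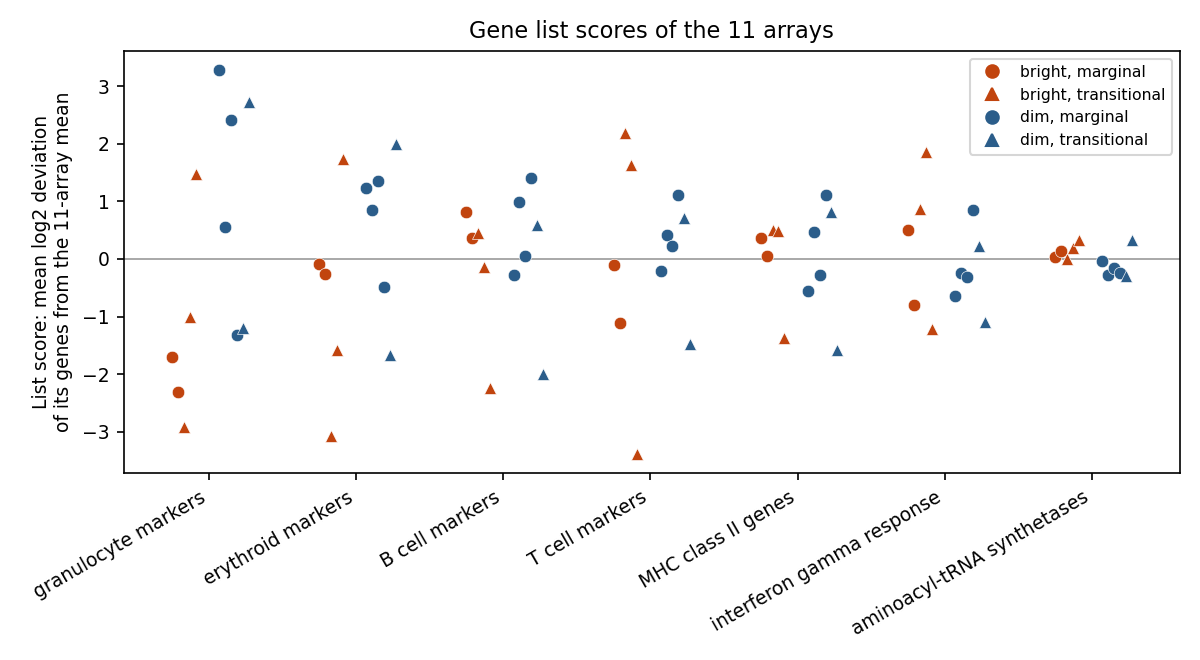
List score (mean log2 deviation of the list's genes from the 11-array mean) of 7 gene lists on the bright and dim arrays, with circles for marginal and triangles for transitional tumours. The sets overlap on each list, and granulocyte scores run from -2.92 to 1.47 on the bright and from -1.33 to 3.28 on the dim arrays.

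Gene groups tied to antigen display and to Vars were described likewise. Of all 22615 probe sets tested, 12027 had a higher mean in the bright set, with a median difference of 0.02. Of 12 genes of class I peptide loading, 10 were higher in the bright set with a median of 0.19, and -0.11 among marginal and 0.56 among transitional tumours. Erap1, which trims peptides for class I, differed by 0.71 ± 0.35 and Pdia3, of the loading complex, by 0.26 ± 0.19 (SE). Of 18 interferon gamma response genes, 14 were higher with a median of 0.52, but the median was 0.02 among marginal and 0.92 among transitional tumours. Gbp7, a guanylate-binding protein induced by interferon gamma, differed by 0.77 ± 0.31 and Ifngr2, a chain of the receptor, by -0.55 ± 0.33 (SE). Of 23 type I interferon genes, 15 were higher with a median of 0.09, and of 12 heat shock chaperones 10 were higher with a median of 0.12, both below 0 among marginal tumours (-0.07 and -0.15) and above it among transitional ones (0.14 and 0.27). The heat shock list score was 1.17 on transitional 5 but -0.44 to -0.0054 on the other bright arrays, beside -0.31 to 0.13 on the dim arrays. The higher heat shock means in the bright set thus rest largely on transitional 5.

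Of 19 aminoacyl-tRNA synthetases, the enzymes that load amino acids onto tRNA, 14 were higher and 5 lower, with a median of 0.23 and 0 called. Besides Vars, which was named with the split, Rars, the arginyl enzyme, did not overlap. It read 1595 to 1968 on the bright and 1156 to 1491 on the dim arrays. Over all probe sets tested, bright lay above dim without overlap on 62 of 22615 (0.274%). The Rars difference of 0.33 ± 0.14 (SE) was small beside the 2.03 of Vars, and its adjusted p in limma was 0.962.

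Transcripts of the sex chromosomes also ran with the split among the transitional tumours. The bright transitional 1, 2 and 5 read 37.6 to 45.4 for Xist, the RNA of the inactive X, and 280 to 1115 for the Y-linked Eif2s3y. The dim transitional 3 and 4 read 2638 and 4099 for Xist and 4.2 and 3.3 for Eif2s3y. Among marginal tumours, marginal 2, a dim array, was the one with the Y-linked signal, at 648. Sex and brightness can therefore not be told apart among the transitional arrays, while both bright marginal arrays had Xist signal (11436 and 684) as did 3 of 4 dim ones.

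Spleen enlargement, graded in words and ranked from 1 to 5, averaged 4 ± 1 in the bright set (SD, n = 5) and 2.17 ± 0.98 in the dim set (SD, n = 6). The two-sided exact permutation p over 462 splits was 0.0368, and 0.147 after adjustment over 4 measures. The bright mean was higher within both classes, by 1.25 ranks among marginal and 1.67 among transitional tumours. Failure to nest was recorded for 3 of 5 bright and 4 of 6 dim mice. Measures of the arrays did not differ beyond their spread: the median signal was 128 ± 19.99 (SD, n = 5) and 130 ± 12.2 (SD, n = 6), with an exact permutation p of 0.864, and the 3-prime to 5-prime ratios of Actb and Gapdh, a sign of RNA integrity, gave exact permutation p values of 0.665 and 0.922. The smallest p this design allows is 0.00216.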

How the data were processed

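The values are array intensities that the authors deposited on a linear scale, made with MAS5 (version not stated) per the submitters' processing notes, and scaled to 1 trimmed mean, 500.2 on every array with 2% cut at each end. Each sample is 1 array, and 0 columns lacked a sample. Of 22690 probe sets, 64 controls and 11 of H2-D1 were left out, leaving 22615, with no filter. Signals plus 16 were taken to log2 and compared with limma 3.58.1 in R 4.3.3 (intensity trend, two-sided, Benjamini-Hochberg 0.05). Gene names were those of the platform annotation at GEO, brought up to date with a RefSeq table (20380 probe sets with 1 gene, 691 with several, 1555 with none, of which the first were named, the others only for H2 genes). Lists used the brightest probe set of each gene. Named were the 8 smallest p in each direction, the 5 largest differences of each H2 list, and 2 members of each list described with examples. No p is printed for H2-D1, class I genes, H2-Eb1 and Vars, though the last pair stand among the 8 by their p. Arrays, lists and genes were chosen with earlier results of these data known. Data were simulated for this comparison over 22615 probe sets, with noise drawn independently for each probe set and array. In them, 23 of 100 2-fold and 69 of 100 4-fold changes were recovered, with 4 false calls. Variation shared between probe sets was not simulated, so these rates need not hold for the real arrays. Alternatives covered offset, scaling, filter, trend, weights, class, sample number as a block, and arrays left out. Probe sequences were not used here.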

Additional observations from a re-analysis of the deposited data

Results flagged for a closer look

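Single arrays that stood apart from the rest of their set were looked for among 62 probe sets in each of the bright and dim sets, 124 groups of values in all, and 15 were found. Chance gives about 5% of such groups. Transitional 5, a bright array, was far below the other bright arrays for H2-Eb1 (3647, the others 11215 to 17476) and Sapcd1 (48.3, the others 391 to 700), and far above them for Camp (4621, the others 425 to 794). Among the bright arrays, marginal 5 was apart and high for Rab31 (432, the others 188 to 233) and Klra8 (4.4, the others 0.7 to 1.6), marginal 6 was high for Gtf2h4 (707, the others 368 to 442), and transitional 2 was low for Syt5 (3.8, the others 8.9 to 11).

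Among the dim arrays, transitional 4 was low for Syt5 (7.7, the others 43.7 to 83.6) and H2-T3 (57.9, the others 140 to 195). Transitional 3 was low for Alas2 (1695, the others 8894 to 18342) and high for the H2-D1 probe set whose mean difference was 1.49 (175, the others 33.2 to 50.9). Marginal 4 was low for Klra17 (118, the others 240.0 to 352). Marginal 1 was high for Hspa9 (1192, the others 833 to 941). Marginal 2 was low for Xist (35.2, the others 2638 to 11242) and high for Eif2s3y (648, the others 0.2 to 4.2).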

How the results depend on the processing

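Across the alternatives that kept all 11 arrays, 0 probe sets were called bright against dim in either direction. With marginal arrays only, 17 were called higher and 35 lower, among them Nme1 (2.71, adjusted p in limma 0.0056) and Ear3 (-3.68, adjusted p 0.0049). Without transitional 4 and 5, 0 were called higher and 3 lower, and without transitional 5 alone 4 lower, Ear3 in both (-3.16 and -3.21, adjusted p 0.0197 and 0.0054). Leaving out 1 array at a time gave 0 higher and 0 to 4 lower. Median scaling called 1 interaction in place of 0. Probe sets without overlap, 62 higher, were 34 among the upper 40% by mean, 82 to 300 with 1 array left out and 367 without transitional 4 and 5. The 40 lower were 24 and 19 in the upper 60% and 40%, 58 to 170 with 1 array left out and 238 without both. Fewer arrays or probe sets make these counts rise or fall by construction. With 1 or 64 added in place of 16, 11 of 53 named differences moved over 1.5 times and 0 changed sign, those of Msh5, Mbd1, Fkbpl, Prl, Cst9, Rasgrp4, Syt5, Tmed11, Klra8, Ncr1 and Eif2s3y. Within 50 steps of H2-D1 the 6 higher were 4 to 8 under every alternative tried for them. The sample numbers do not pair the arrays: same-numbered arrays correlated at -0.339 to -0.0616 in their deviations and 0 of 5 matched best with their own number. With the replicate block 0 were called. Differences that changed sign, none called, were with the replicate block H2-M3 (0.39), H2-K1 (0.60), H2-Oa (0.15), H2-DMb2 (0.33), H2-DMa (0.39) and the brighter probe set of Brd2 (-0.034), with transitional arrays only H2-T3 (0.11), H2-K1 (0.14), H2-Oa (0.0091), H2-DMb2 (0.078), H2-DMa (0.072), Ifngr2 (0.16) and Cr2 (0.68), with marginal arrays only Pdia3 (-0.064), Cd72 (0.25), Xist (0.72), Eif2s3y (-1.26) and that Brd2 probe set (-0.075), with array weights H2-DMa (0.0020) and without transitional 4 and 5 that Brd2 probe set (-0.0053). With 1 array left out H2-M3 ran from -0.88 to 0.0034, H2-K1 -0.48 to 0.10, H2-DMb2 -0.55 to 0.16, H2-DMa -0.61 to 0.24, that Brd2 probe set -0.093 to 0.097 and the class II median -0.55 to 0.19. The cause was not tested. The sex, granulocyte and erythroid differences that run with the split were not separated from it, and no batch record was used.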

Other observations

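The median level of whole chromosomes was also set side by side on the 11 arrays, after the chromosome 18 probe sets had been noticed, as each array's median deviation from the 11-array mean less the same median over all probe sets with 1 gene. For the 550 probe sets of chromosome 18, this was 0.09 on marginal 5, 0.15 on marginal 6, 0.00095 on transitional 1, 0.16 on transitional 2 and 0.04 on transitional 5, and -0.10 to -0.03 on the 6 dim arrays, so the sets did not overlap. The median bright minus dim difference there was 0.16, with 0.18 among marginal and 0.14 among transitional tumours, the highest of the 20 chromosomes compared, followed by 0.09 on chromosome 13. For chromosome 17, which carries H2-D1, it was -0.0039. Other chromosomes stood out on single arrays: chromosome 12 at -0.31 and chromosome 4 at -0.24 on marginal 5, chromosome 15 at 0.25 on transitional 3 and 0.12 on transitional 2, and chromosome 2 at 0.18 on marginal 6. Copy number was not measured here.

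With marginal arrays only, where 2 bright arrays stood against 4 dim ones, the largest called difference higher in the bright set was Ms4a4b, of the CD20-related membrane protein family, at 6.63 (adjusted p in limma 0.000917). Among those lower in the bright set were Lyz2, the lysozyme of myeloid cells (-2.48, adjusted p 0.0383), Ccl6 (-2.22, adjusted p 0.0251) and Ccl9 (-2.69 and -3.13 on its pair of probe sets, adjusted p 0.0105 for each), chemokines of myeloid cells, and 5 probe sets of Ighm, the immunoglobulin mu heavy chain (-3.56 to -2.97). These genes were named after their values were seen, and Lyz2 among transitional tumours differed by -0.26.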
